A study of Rattus norvegicus with 19 samples.

Results

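A set of 100 transcripts, of 29107 in the table, was found in mast cells sorted from the bone marrow of newborn rats and was nearly absent from mast cells sorted from skin, hippocampus and hypothalamus at the same age. Members were chosen from measured levels: a mean of at least 20 CPM (counts scaled to a common library total) in bone marrow, at least 20 times the mean in skin, and below 1% of the bone marrow mean in hippocampus and in hypothalamus, all at postnatal day 2 (PN2). Of 7003 transcripts with at least 20 CPM in bone marrow, 275 were at least 20 times above skin, and 100 of these also met both limits in the brain. The levels in bone marrow, skin, hippocampus and hypothalamus at PN2 are therefore given as a description, with no test.

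The rats were wild type (WT) pups perfused with PBS at PN2 or at postnatal day 7 (PN7), and no group received any other treatment. Immune cells were purified on a 37% Percoll gradient, and 1000 to 10000 live single cells per sample were taken by a gate on high CD45, FcεRI at the surface and lack of CD11b, which was the same for every group. PN2 was covered by 4 bone marrow, 5 skin, 4 hippocampus and 2 hypothalamus libraries, and PN7 by 3 of hippocampus and 1 of hypothalamus. Each replicate pooled cells of 6 animals, so the spread reported here is between pools and animals within a pool cannot be told apart.

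Mast cells live in tissues, bind IgE through its high-affinity receptor FcεRI and store proteases and histamine in granules. They arise from haematopoietic progenitors that leave the blood and mature in the tissue. Bone marrow holds such progenitors, and also basophils, which carry FcεRI too but commonly also CD11b, against which this gate selected. The files name transcripts by Ensembl identifier and pair none of them with a gene. No marker of a mast cell, basophil or other cell could be read, so the label mast cell was not checked, and a part of other cells in the result was not tested. In bulk RNA, fewer cells that hold a transcript and less of it per cell cannot be told apart.

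Depth differed between groups. Total estimated counts ran from 16196856 to 22563833 per library in bone marrow, 11704985 to 26394623 in skin, 19935250 to 22967152 in hippocampus at PN2 and 10329777 to 12870442 at PN7. Both hypothalamus libraries of PN2 were shallow, at 5495252 and 5607810, and the hypothalamus library of PN7 held 9792422. A floor of 3 counts over a whole group is worth 0.0274 CPM in skin and 0.0345 CPM in hippocampus at PN2, but 0.270 CPM in hypothalamus at PN2. For 10 members, 1% of the bone marrow level lies under that last floor, so for them a level between the limit and the floor was not detectable in hypothalamus at this depth. PCR amplification without molecular identifiers means that floors and intervals cover counting error only. Bone marrow replicate 4 stood apart from replicates 1 to 3, and results that rest on it are given with and without it.

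The members together made up 4.88% of the counts in bone marrow. They summed to 50011, 44249, 48276 and 52690 CPM in the 4 bone marrow libraries, a mean of 48806 ± 3540 CPM (SD, n = 4). The sum was similar over the marrow pools, although single members were not steady and its make-up differed in replicate 4, as given below. Most of it came from few transcripts. The first by level held 27.3% of the sum, the first 3 held 48.2%, the first 10 held 74.7% and the first 20 held 85.6%. By bone marrow mean, 10 members reached at least 1000 CPM, 35 lay between 100 and 1000 CPM, 19 between 50 and 100 CPM and 36 between 20 and 50 CPM, with a median of 74.6 CPM.

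In skin the same 100 transcripts came to a total of 34.9 ± 8.69 CPM (SD, n = 5), or 0.0715% of the marrow sum. The total for hippocampus of PN2 was 59.3 ± 20.3 CPM (SD, n = 4), or 0.121%. In hypothalamus at PN2 the libraries held 29.8 and 174 CPM, a mean of 102 ± 102 CPM (SD, n = 2) or 0.209% of the marrow sum. Replicate 1 lay within the range of skin and replicate 2 above it, and the choice of members held both low. The skin libraries ran from 22.5 to 44.9 CPM and the hippocampus libraries of PN2 from 39.5 to 79.1 CPM, so these 2 groups overlapped as well. All 4 marrow libraries lay more than 100 times above every other library of PN2. The choice of members favours such a gap, although its limits were on group means.

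**Figure D1:**
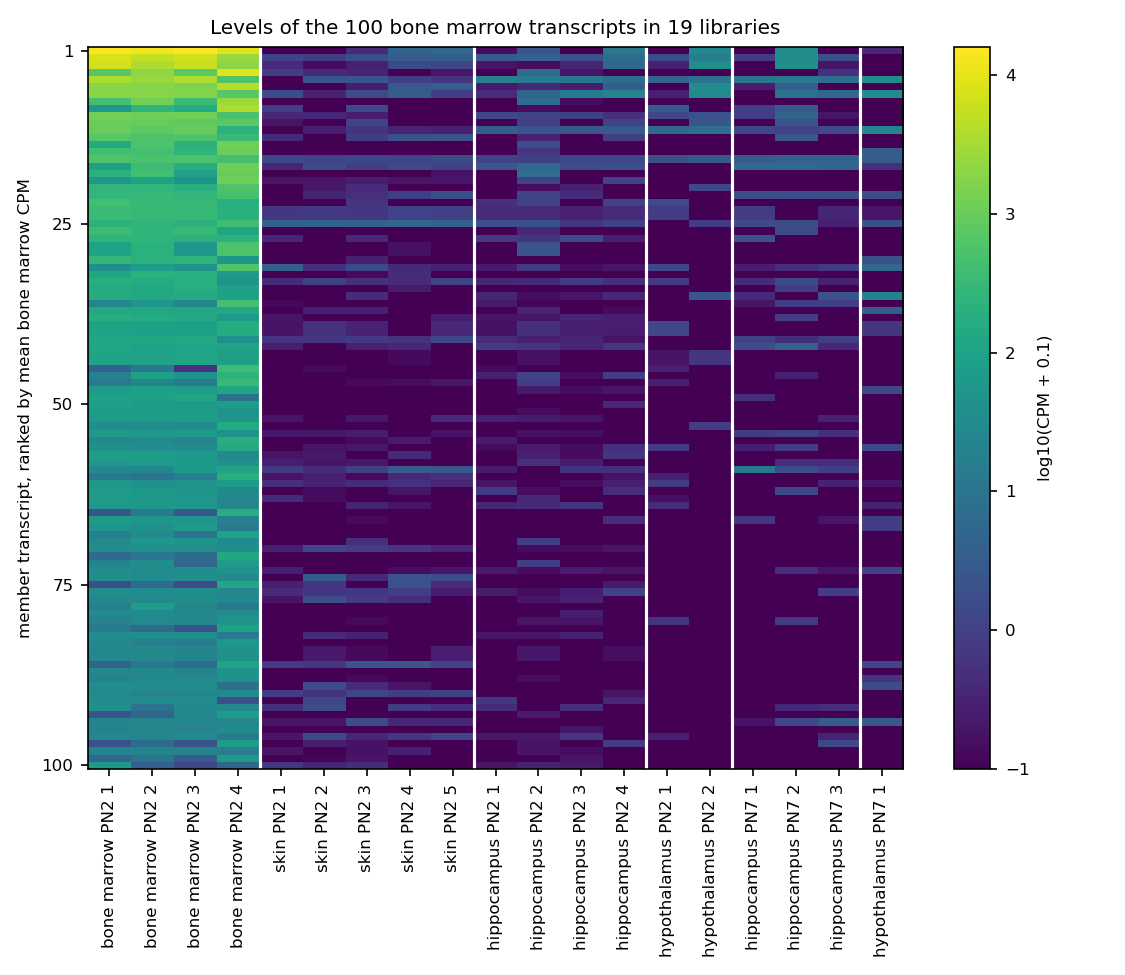
Level of each of the 100 member transcripts (rows, ranked by mean bone marrow CPM) in the 19 libraries (columns, grouped by tissue and age), as log10 of CPM + 0.1; the darkest colour is a level of 0. The bone marrow columns are filled from the first row, at 13311 CPM on average, to the last, at 20.02 CPM, while the columns of skin and brain hold scattered low values.

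ENSRNOT00000011168.3 was the most abundant member. It held 14408, 13031, 15989 and 9816 CPM in bone marrow replicates 1 to 4, a mean of 13311 ± 2625 CPM (SD, n = 4). Skin replicates 1 and 2 held 0, and replicates 3, 4 and 5 held 0.343, 4.55 and 5.30 CPM. The hippocampus libraries of PN2 held 0.0460, 2.23, 0 and 11.6 CPM, and both hypothalamus libraries held 0 and 27.3 CPM. The most abundant member was thus at 0 in 4 of the 11 libraries of skin and brain at PN2 and reached its highest value among them in hypothalamus replicate 2.

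ENSRNOT00000036630.6, the next by level, held 7581, 5220, 7160 and 2574 CPM in bone marrow, a mean of 5634 ± 2285 CPM (SD, n = 4). Unlike the first, it had reads in every library of skin (0.770 to 3.64 CPM) and of hippocampus at PN2 (1.86 to 6.84 CPM). Its mean stood at 0.0360% of bone marrow in skin, 0.0686% in hippocampus and 0.171% in hypothalamus.

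Absence from the other tissues was a matter of degree among the members. In skin the median member stood at 0.0503% of its bone marrow level, and 14 members lay between 1% and 4.25%, inside the skin limit of the rule. In hippocampus at PN2 the median member stood at 0.120% and in hypothalamus at 0%. Over all libraries of a group, 23 members had 0 counts in skin, 17 in hippocampus and 68 in hypothalamus at PN2. Hypothalamus, with the larger number, also had fewer reads and fewer libraries, and the part of these in the number was not tested. Thinned to 5495252 counts each, the hippocampus libraries of PN2 showed 26 to 46 members, skin 33 to 49 and hypothalamus 23 and 16. Before thinning the numbers were 40 to 68, 41 to 62, and 23 and 16. In this thinning the hypothalamus libraries showed fewer members than each hippocampus or skin library of PN2. The rule held the members low in all these libraries, with a different limit in skin, so nothing is read from this order. Over the whole table, hypothalamus replicate 2 also showed fewer transcripts than replicate 1, 13155 against 15823.

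Members near the limits were the following. The lowest bone marrow mean inside was 20.02 CPM, and the highest outside that met every other limit was 19.7 CPM. The lowest fold over skin inside was 23.5. The next transcript outside stood at 2.60-fold, so no transcript outside lay close to that limit. In hippocampus the nearest values were 0.947% inside and 1.02% outside, and in hypothalamus 0.967% and 1.07%.

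With 0 counts in all 11 libraries of skin, hippocampus and hypothalamus at PN2 there were 9 members, with bone marrow means from 30.02 to 79.9 CPM. ENSRNOT00000075752.2, the highest of them, held 93.4, 94.7, 123 and 8.84 CPM in bone marrow, a mean of 79.9 ± 49.2 CPM (SD, n = 4). Against the floor of 3 counts over each group it was at least 2914-fold lower in skin, 2316-fold lower in hippocampus and 296-fold lower in hypothalamus. Replicate 4 was far below the other 3 marrow libraries. ENSRNOT00000013936.3, the second, showed the opposite: 2.41, 14.8, 2.43 and 177 CPM, a mean of 49.1 ± 85.3 CPM (SD, n = 4). It is a member through replicate 4 alone, since its mean without it was 6.54 CPM. The bounds for it, at least 1791-fold lower in skin, 1423-fold in hippocampus and 182-fold in hypothalamus, rest on that library too. Of these 9 transcripts, 7 also had 0 counts in every PN7 library.

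Within bone marrow the level of many members varied between pools. Their median coefficient of variation (SD over mean) was 40.4% over the 4 libraries, against 16.2% for all 7003 transcripts with at least 20 CPM in bone marrow. It was 32.0% for the 175 transcripts that met the limits on bone marrow and skin but not those in the brain, called the comparison set below. Without replicate 4 these medians were 13.1%, 7.07% and 9.35%. The members were chosen on the means of these same libraries, and 1 high library can carry a transcript over the limit. The contrast with the 7003 is therefore a description, with no test. A variation of less than 20% was found for 19 members and 60.5% of the 7003, and one of more than 100% for 20 members and 0.985% of the 7003. Steady ones included ENSRNOT00000048332.4, at 24.4, 24.7, 26.7 and 26.3 CPM, and ENSRNOT00000020197.6, at 584, 513, 527 and 466 CPM.

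The members were grouped by their level in replicate 4. Against the mean of replicates 1 to 3, 33 members were at least 2-fold higher in replicate 4, where 8.15% of the 7003 transcripts were, and 25 were at most 0.5 times, where 6.1% were. In the comparison set the shares were 21.1% and 25.1%. As replicate 4 is 1 library, no test of these counts is possible. The 33 members summed to 4946, 8606, 4374 and 30443 CPM in replicates 1 to 4, and the 25 members to 24451, 16954, 22329 and 7233 CPM. The grouping itself set the direction of both sums in replicate 4, so only their size is described. The other 42 members summed to 20614, 18689, 21572 and 15013 CPM, also lowest in replicate 4. The comparison set gave 167200, 162521, 166790 and 84886 CPM, lowest in replicate 4. By Dixon's gap over range, 1 marrow library stood apart for 29 of the 100 members, where 20.5% of the 7003 transcripts had one.

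ENSRNOT00000081951.1, singled out after its values were seen, had the highest mean of the 33. It held 717, 2141, 782 and 8718 CPM, a mean of 3089 ± 3809 CPM (SD, n = 4), and 1213 CPM without replicate 4. ENSRNOT00000002938.3 and ENSRNOT00000042374.3 were the most uneven, with 95.8% and 92.8% of their marrow total in replicate 4. ENSRNOT00000002938.3 held 4.20, 12.4, 0.476 and 388 CPM, and ENSRNOT00000042374.3 held 1.79, 6.44, 1.48 and 125 CPM. Without replicate 4 their means were 5.70 and 3.23 CPM. In all, 11 members had a mean under 20 CPM over replicates 1 to 3, and all 11 belonged to the 33.

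The grouping used replicates 1 to 3 only through their mean, so their order among themselves was not set by it. Among replicates 1 to 3, replicate 2 was highest for 26 of the 33 (78.8%), against 57.6% of the 571 transcripts of at least 20 CPM with the same rise in replicate 4 and 48.6% of the 37 in the comparison set. These shares were not tested against each other. For the 25 members low in replicate 4, replicate 1 was highest of the 3 for 17 (68%). The share was 53.4% for the 427 transcripts with the same drop and 65.9% for the 44 in the comparison set, near that of the members. For the 42 members in between, replicates 1, 2 and 3 were highest for 15, 12 and 15. A departure of another kind was ENSRNOT00000087901.1, which held 69.5 CPM in replicate 1 and 3.86, 1.26 and 5.41 CPM in replicates 2 to 4. This transcript, singled out after its values were seen, is the member with the lowest mean, and without replicate 1 its mean was 3.51 CPM.

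**Figure D2:**
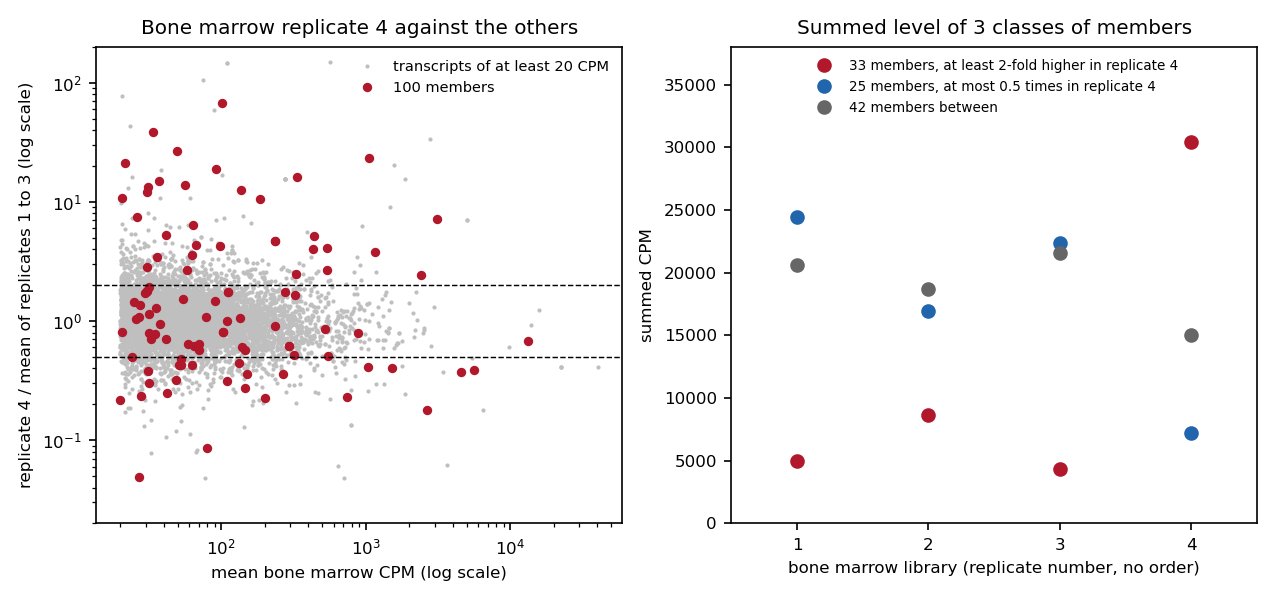
Left, level in bone marrow replicate 4 divided by the mean of replicates 1 to 3 against mean bone marrow CPM (both axes logarithmic) for the 100 members (red) and for all transcripts of at least 20 CPM (grey; 10 lie outside the axis), with dashed lines at ratios of 2 and 0.5. Right, summed CPM of the 33 members above, the 25 below and the 42 between these lines in each bone marrow library. The 33 reach 30443 CPM in replicate 4 and the 25 drop to 7233 CPM, in directions set by the grouping.

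Choosing members without a library and then reading that library gave values that the choice had not used. With each bone marrow library left out in turn, the rule found 88 to 104 transcripts, of which 85 to 98 were among the 100. In the library left out, 72.1% to 81.2% of them met every limit, and 12 to 18 fell below 20 CPM there. Only the marrow value was new in this check, as the skin and brain means were those that had chosen the transcripts. The sum of the chosen transcripts in the marrow library left out was 84.0% to 104% of the mean sum in the other 3. With a skin library left out, 95% to 100% of the chosen transcripts stayed at least 20 times below bone marrow in it, and for the hippocampus libraries 91.3% to 97.9% stayed below 1%. For the hypothalamus libraries the shares were 78.3% in replicate 1 and 90.9% in replicate 2. The sums in hypothalamus were higher once the library took no part in the choice: the 115 transcripts chosen without replicate 1 held 208 CPM in it, 0.428% of their bone marrow sum, and the 99 chosen without replicate 2 held 183 CPM in it, 0.376%. The same sums were 22.5 to 44.9 CPM in the skin libraries and 40.3 to 81.6 CPM in the hippocampus libraries. These sums are not alike. Without a hypothalamus library, only the other hypothalamus library set the limit there, and 95 of the chosen transcripts were among the 100. Without a skin library 99 or 100 were, and without a hippocampus library 97 to 99. No order of the tissues is therefore read from these sums.

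The libraries of PN7 took no part in the choice of members. In hippocampus at PN7 the members summed to 47.1, 185 and 41.8 CPM in replicates 1 to 3, a mean of 91.4 ± 81.3 CPM (SD, n = 3) or 0.187% of the marrow sum. Replicate 2 stood above every hippocampus library of PN2, and replicates 1 and 3 lay within their range; without replicate 2 the mean was 44.5 CPM. In the hypothalamus library of PN7 the sum was 146 CPM (exact 95% Clopper-Pearson interval of 138 to 153 CPM), 0.298% of the marrow sum. Of the 100 members, 94 stood below 1% of bone marrow in hippocampus at PN7 and 85 in the hypothalamus library of PN7. The members stayed low a few days later in both regions.

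The comparison set, which had reached 1% in at least 1 brain region at PN2, held more at PN7 as well. Its sum was 8494 ± 1631 CPM in hippocampus (SD, n = 3), 5.84% of its marrow sum. The hypothalamus library gave 65068 CPM, 44.8% of it. Of its 175 transcripts, 35 stood below 1% of bone marrow in hippocampus at PN7 and 34 in hypothalamus. The hypothalamus values come from 1 library, and no test of the difference between these sets was made.

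**Figure D3:**
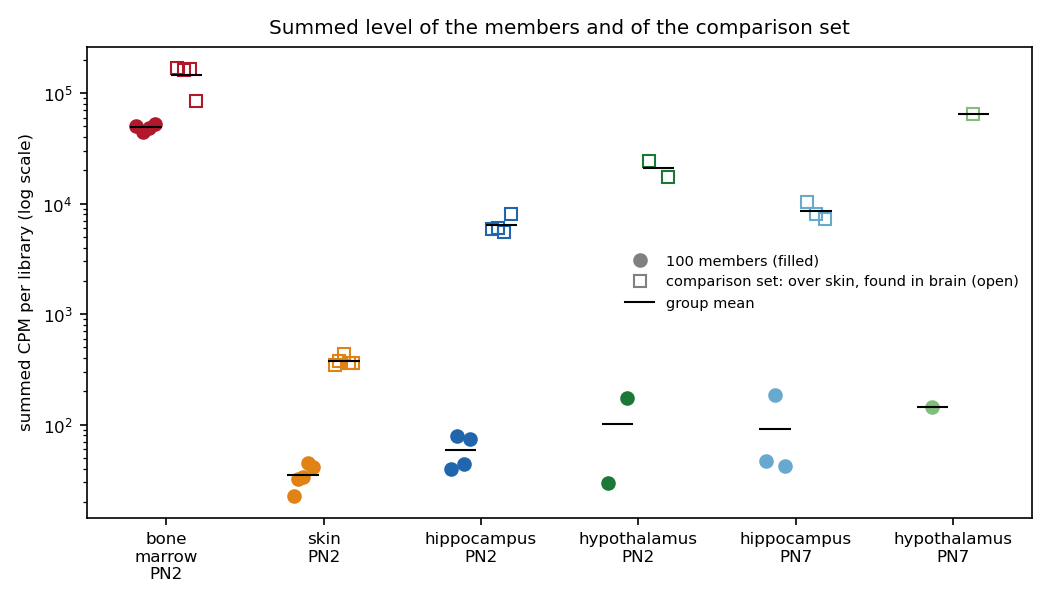
Summed CPM per library (logarithmic axis) of the 100 members (filled circles) and of the comparison set of 175 transcripts (open squares) in the 6 groups; each point is a library and each line a group mean. The members lie between 22.5 and 185 CPM in all 15 libraries outside bone marrow, whereas the comparison set reaches 65068 CPM in the hypothalamus library of PN7.

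All 100 members were lower in hippocampus at PN7 than in bone marrow at PN2 with edgeR's quasi-likelihood test (Benjamini-Hochberg adjustment over 20521 transcripts), against 18.1% of all transcripts tested. No library of hippocampus at PN7 overlapped with bone marrow for any of the 100, as for 46.6% of the 7003 transcripts. The members were chosen for their high level in these bone marrow libraries, so nothing is read from this count. With DESeq2 91 of the 100 were called.

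Between PN2 and PN7 in hippocampus, edgeR's quasi-likelihood test called 4 of the 100 members higher and 0 lower, against 3.43% and 5.51% of all transcripts tested (8.94% in either direction). The rule had required low levels in hippocampus at PN2, so the test is not independent of the choice, and nothing is read from these counts. Most members also entered the test only through their bone marrow level: with only the hippocampus groups in the fit, 14 members passed the filter on low counts and 1 was called. At an unadjusted p under 0.05, 9 members were higher and 6 lower at PN7, and DESeq2 called 6 higher and 4 lower. In all 3 hippocampus libraries of PN7, 55 members had 0 counts. The values of the 4 members called are given as a description, with no p.

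ENSRNOT00000020197.6 had the smallest spread of the 4, and is the one that was also called with only the hippocampus groups in the fit. It held 0.992, 0.821, 1.20 and 1.18 CPM in hippocampus at PN2 and 2.95, 4.40 and 4.45 CPM at PN7, with no overlap. The fitted log2 change was 1.85 ± 0.22 (SE). Skin held 1.03 to 1.48 CPM, hypothalamus 1.64 and 2.67 CPM at PN2 and 3.37 CPM at PN7. Even so, hippocampus at PN7 reached only 0.753% of the bone marrow level of 522 CPM.

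ENSRNOT00000048332.4 had 0 counts in all 4 hippocampus libraries of PN2 and held 0.0777, 1.22 and 3.29 CPM at PN7, at least 44.3-fold higher against the floor of 3 counts over PN2. It held 2.45 CPM in the hypothalamus library of PN7 and 0 counts in those of PN2. It was the only member at or above 1% of bone marrow in both PN7 groups, at 5.99% in hippocampus and 9.60% in hypothalamus.

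ENSRNOT00000017851.6 held 0, 0.0692, 0.0659 and 0 CPM in hippocampus at PN2, 3 counts in all, and 0.699, 1.07 and 0.392 CPM at PN7, 24 counts in all. Its log2 change was 4.06 ± 0.75 (SE), fitted from these few counts. ENSRNOT00000085678.1 held 0.135, 0, 0.481 and 0.392 CPM at PN2 and 12.7, 1.59 and 0.792 CPM at PN7, a log2 change of 4.22 ± 1.03 (SE). Replicate 1 of PN7 gave most of this last change, and without it the transcript was no longer called. Skin held 0.350 to 2.82 CPM of the same transcript.

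**Figure D4:**
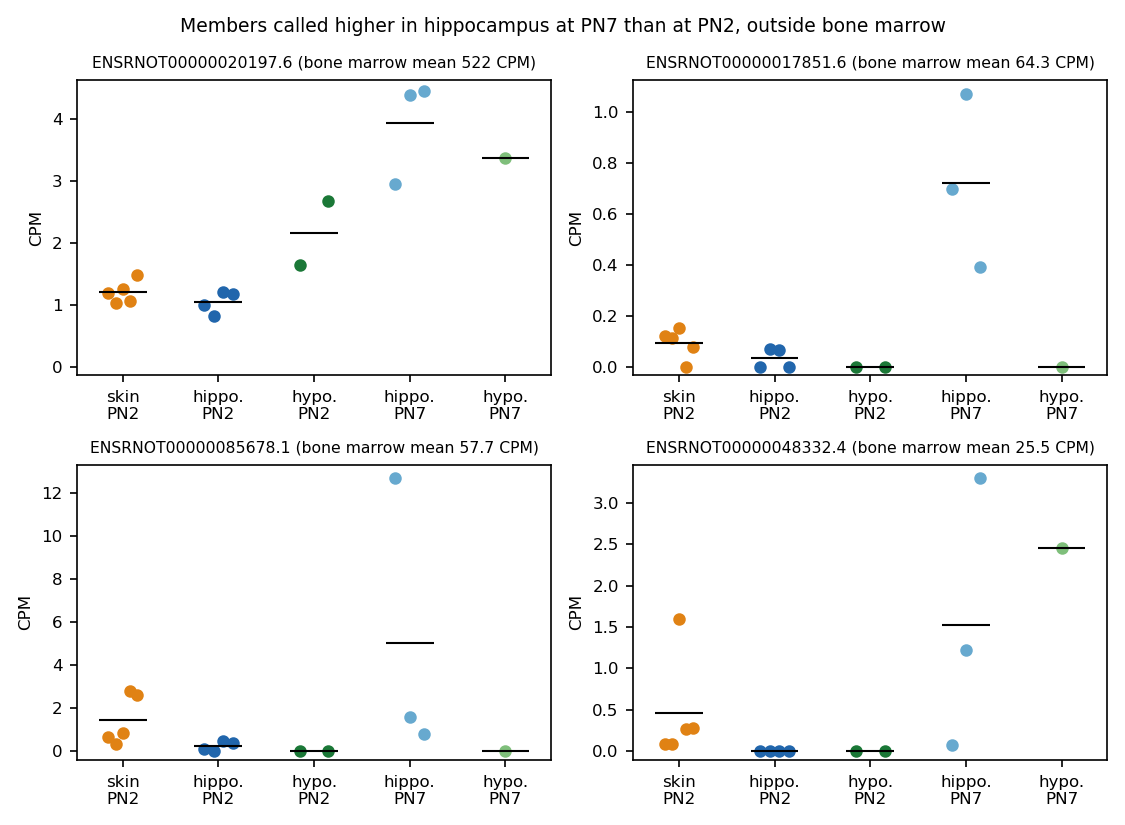
CPM per library of the 4 members called higher in hippocampus at PN7 than at PN2, in the groups outside bone marrow; points are libraries and lines group means. The hippocampus libraries of PN7 lie above those of PN2 in each panel, and in the panel of ENSRNOT00000085678.1 replicate 1 reaches 12.7 CPM against 1.59 and 0.792 CPM in the other two.

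The hypothalamus library of PN7 held 15 members at or above 1% of their bone marrow level. ENSRNOT00000002452.5 was highest by this measure, at 22.4 CPM or 16.2% of its bone marrow mean of 138 ± 32.2 CPM (SD, n = 4). Its hypothalamus libraries of PN2 held 0 and 2.32 CPM, and those of hippocampus at PN7 held 0.311, 0 and 2.03 CPM. ENSRNOT00000048332.4 came second. With 1 library, no change with age in hypothalamus can be tested.

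The few reads of members outside bone marrow were unevenly placed, in 2 ways, here illustrated by transcripts singled out after their values were seen. ENSRNOT00000079782.1, at 3696, 2570, 3775 and 604 CPM in bone marrow, was present in every brain library: 6.74 to 19.7 CPM in hippocampus at PN2, 7.31 to 13.3 CPM at PN7, 4.92 and 8.53 CPM in hypothalamus at PN2 and 34.1 CPM at PN7. ENSRNOT00000011735.4, at 7021, 3648, 5633 and 2021 CPM in bone marrow, was instead concentrated in single libraries. It held 39.4 CPM in hippocampus PN7 replicate 2 against 0 and 0.0968 CPM in the other two, and 38.5 CPM in hypothalamus PN2 replicate 2 against 0.182 CPM in replicate 1. In hippocampus at PN2 it held 5.14 CPM in replicate 4 and at most 0.251 CPM in the rest.

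ENSRNOT00000011168.3 and ENSRNOT00000036630.6 had their highest values outside bone marrow in the same libraries, at 37.3 and 37.5 CPM in hippocampus PN7 replicate 2 and 27.3 and 17.7 CPM in hypothalamus PN2 replicate 2, although ENSRNOT00000036630.6 had reads in every other brain library of PN2 and hippocampus library of PN7 as well. Hippocampus PN7 replicate 2 had the highest value of the 3 libraries for 23 of the 45 members with any count there.

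Hippocampus PN2 replicate 2 held other members. The 33 that were higher in bone marrow replicate 4 summed to 37.9 CPM in it, against 3.25, 2.84 and 8.71 CPM in replicates 1, 3 and 4. Of the 33, 19 had any count in it, against 9, 10 and 10 in replicates 1, 3 and 4. A few of them gave most of the sum in replicate 2. ENSRNOT00000081951.1 held 6.61 CPM there, 0.1003 CPM in replicate 3 and 0 in replicates 1 and 4. The 25 members low in bone marrow replicate 4 were more evenly spread, at 29.9, 28.1, 35.03 and 45.01 CPM. Those 25 summed to 110 CPM in hippocampus PN7 replicate 2, against 14.7 and 18.2 CPM in replicates 1 and 3. The source of these reads was not tested.

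Estimated counts are whole where no read was divided between transcripts. Estimates in bone marrow came out whole in each of the 4 libraries (to within 1e-06) for 53 of the 100 members and for 61.3% of the 7003 transcripts of at least 20 CPM. Values identical to another transcript in every library were found for 10 members and for 9.81% of the 7003. As these 10 form pairs among themselves, the 100 transcripts hold 95 distinct profiles.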

How the data were processed

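The authors deposited estimated counts per transcript, 1 column per library, with no scaling between libraries. The submitters' processing notes name kallisto and build Rnor_6.0; the kallisto version is not given in the sources used here. SMART-Seq v4 cDNA went into Nextera XT libraries, per the labels' protocols. kallisto divides reads that match several transcripts, so isoforms and near-identical copies are uncertain. Columns were matched to samples by tissue, age and replicate number in their names. None of the 47357 genes in the reference table has an Ensembl identifier (0 matched), so the marker lists written for cell types could not be read and no sequence was matched.

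Levels are CPM, the estimated count divided by the column total. Counts of 0 are estimates that round to 0. For tests, estimated counts were rounded, filtered with filterByExpr over 6 groups (20521 transcripts kept, all 100 members among them), scaled by TMM and fitted with edgeR 4.0.16 in R 4.3.3 (glmQLFit, robust, 19 libraries, group means), with calls at an adjusted p below 0.05. The members had to pass the filter, as it counts their bone marrow level. Tested on simulated data, the fit missed small changes between PN2 and PN7, in transcripts of higher level than most members held in hippocampus. A transcript that was not called is therefore not shown to be unchanged. Alternatives used DESeq2 1.42.0, limma 3.58.1 voom, RLE factors, other filters, fewer groups, a replicate block and each replicate left out. Thinning, the sets without libraries numbered 4 and 5, the grouping by bone marrow replicate 4 and the counts below 1% at PN7 were added after seeing the data. The members and lists were chosen with earlier results of these data known. Identifiers were printed by rule: the 2 highest in bone marrow, the 2 highest with 0 counts elsewhere at PN2, those called between PN2 and PN7, the 2 highest in hypothalamus at PN7 relative to bone marrow and the 2 most concentrated in 1 marrow library; others are marked in the text as singled out afterwards, as is ENSRNOT00000081951.1.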

Additional observations from a re-analysis of the deposited data

Results flagged for a closer look

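A library far from the others of its group, by Dixon's gap over range, was found for 7 of the values given for single transcripts. For normally distributed values chance gives such a gap in about 5% of groups. In bone marrow 20.5% of the 7003 transcripts of at least 20 CPM had one, so 5% is too low a reference here. In bone marrow, replicate 4 was far above the rest for ENSRNOT00000013936.3 (177 CPM), ENSRNOT00000002938.3 (388 CPM) and ENSRNOT00000042374.3 (125 CPM), and replicate 1 for ENSRNOT00000087901.1 (69.5 CPM). ENSRNOT00000002938.3 and ENSRNOT00000042374.3 had been picked for their concentration in 1 marrow library, and ENSRNOT00000087901.1 was singled out after its values were seen. In skin, replicate 3 stood apart for ENSRNOT00000048332.4 (1.60 CPM) and ENSRNOT00000002452.5 (0.343 CPM). In hippocampus at PN2, replicate 2 stood apart for ENSRNOT00000081951.1 (6.61 CPM).

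Over all members, 1 bone marrow library stood apart for 29 of 100 by the same measure, against 20.5% of the 7003 transcripts of at least 20 CPM and 24.6% of the comparison set. Replicate 4 was the high library for 21 of the 29 and the low one for 7. Of the 1435 such transcripts among the 7003, it was high for 976 and low for 386, so this split was not particular to the members.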

How the results depend on the processing

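The number of members stayed between 79 and 131 under the alternatives except with a bone marrow minimum of 50 CPM, which by construction left 64; leaving out a library gave 88 to 115, and without the libraries numbered 4 and 5 it was 87, of which 83 were among the 100. Summed TMM-scaled levels were 44868 CPM in bone marrow and 129 CPM in the hypothalamus library of PN7. Leaving out a library gave sums of 47512 to 50325 CPM in bone marrow, 32.4 to 38.0 CPM in skin, 52.7 to 65.9 CPM in hippocampus at PN2, 29.8 to 174 CPM in hypothalamus at PN2 and 44.5 to 116 CPM in hippocampus at PN7. The median coefficient of variation in bone marrow was 13.1% without replicate 4 and up to 47.6% without another (replicate 3).

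Between PN2 and PN7 in hippocampus, the 4 calls among members became 10 with DESeq2 and 1 with only the groups compared, where 14 members passed the filter; leaving out a replicate gave 3 to 5. Over all transcripts the 1834 calls became 3102 with DESeq2, 4309 with limma voom, 2942 with only the groups compared and 1073 to 1539 without 1 replicate, lowest without replicate 2 of PN7. The call on ENSRNOT00000085678.1 was lost in 4 of 15 alternatives, and that on ENSRNOT00000020197.6 in 0 of 15. All alternatives used hippocampus libraries of PN2, where the rule had required low levels, so nothing is read from a call that stayed. ENSRNOT00000017851.6 and ENSRNOT00000048332.4 did not pass the filter with only the groups compared, so their calls rest on fits in which bone marrow carried them through it. The cause of these shifts was not tested. Same-numbered hippocampus libraries of PN7 and PN2 did not deviate together (correlations of 0.038, 0.024 and -0.118). They come from pups of different ages, and pairing of same-numbered PN2 libraries across tissues was not checked. With a replicate block 5 members and 1914 transcripts were called, and 99 members against bone marrow. Depth limits the 10 members whose level of 1% is under 3 counts in the PN2 hypothalamus group, and 17 members in the library of PN7.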
